A study of Mus musculus with 10 samples.

Results

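The mRNA levels of 7 genes for antimicrobial proteins and alarmins were followed through the differentiation of primary mouse keratinocytes, namely S100a8, S100a9, Slpi, Defb4, Defb1, Lcn2 and Camp. These genes were taken by symbol, and each of them was measured by the probe sets annotated to that symbol alone, 8 probe sets of the 45101 on the array and 7 of 18194 genes. Defb1 had 2 probe sets, whose values were averaged, and the other genes had 1 each. Levels are log2 values as deposited, so that a difference of 1 is a change of 1 doubling.

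Keratinocytes came from the epidermis of newborn mice and were measured on 10 Affymetrix mouse genome arrays. The undifferentiated cells (2 arrays) were kept at 0.05 mM calcium and the differentiated cells (4 arrays) were moved to 0.4 mM calcium for 2 days. The A-C/EBP cells (2 arrays) were differentiated in the same way while expressing A-C/EBP, a dominant negative protein that pairs with C/EBP transcription factors and keeps them from DNA. It was expressed in keratinocytes under tetracycline control and was induced by taking doxycycline away. The 5-AZA cells (2 arrays) were differentiated with 1 uM 5-azacytidine, an inhibitor of DNA methylation, in the medium from shortly after seeding. The study used wild type FVB mice and mice carrying the dominant negative, whose strain it does not state. The labels do not say whether any array outside the A-C/EBP group came from cells with the transgene or kept in doxycycline. A-C/EBP against differentiated cells therefore cannot be told apart from any difference of genotype, strain or doxycycline. Nor do they say whether arrays of a group came from separate cultures or mice, so p-values measure the spread between these arrays.

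Keratinocytes hold microbes off with small secreted proteins and raise the alarm with proteins that act on leukocytes once they leave the cell. S100a8 and S100a9 are calcium-binding proteins that join to form calprotectin, which starves microbes of zinc and manganese and signals through Tlr4 and Ager. The β-defensins Defb4 and Defb1 are cationic peptides that disrupt microbial membranes, and Camp is the cathelicidin precursor, from which an antimicrobial peptide is cut. Slpi inhibits neutrophil elastase and is itself antimicrobial, and Lcn2 withholds iron by binding bacterial siderophores. In normal epidermis S100a8 and S100a9 are low and they are known to rise in wounded and inflamed skin, and C/EBP factors are among the regulators described for them.

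Promoters are shown for the 3 genes whose levels moved most closely together and for which sequence was at hand, because the A-C/EBP comparison bears on C/EBP sites. Each is the 250 bases before the RefSeq start in GRCm38.p6, read 5′ to 3′ on the strand of the gene, from chr3:90668821-90669070 (plus strand) for S100a8, chr3:90695722-90695971 (minus strand) for S100a9 and chr2:164356508-164356757 (minus strand) for Slpi. Capitals mark a match to TTGCNNAA on either strand, which holds the first letters of the C/EBP site TTGCGCAA.
S100a8: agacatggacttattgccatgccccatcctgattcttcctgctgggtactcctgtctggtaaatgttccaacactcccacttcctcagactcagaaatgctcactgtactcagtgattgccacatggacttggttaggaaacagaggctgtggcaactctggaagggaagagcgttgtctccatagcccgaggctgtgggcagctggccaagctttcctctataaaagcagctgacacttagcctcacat
S100a9: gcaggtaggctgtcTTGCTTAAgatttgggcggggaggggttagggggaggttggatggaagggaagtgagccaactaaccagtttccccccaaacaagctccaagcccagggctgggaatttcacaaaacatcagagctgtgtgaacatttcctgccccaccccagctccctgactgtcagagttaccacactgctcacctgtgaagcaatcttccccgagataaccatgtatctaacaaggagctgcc
Slpi: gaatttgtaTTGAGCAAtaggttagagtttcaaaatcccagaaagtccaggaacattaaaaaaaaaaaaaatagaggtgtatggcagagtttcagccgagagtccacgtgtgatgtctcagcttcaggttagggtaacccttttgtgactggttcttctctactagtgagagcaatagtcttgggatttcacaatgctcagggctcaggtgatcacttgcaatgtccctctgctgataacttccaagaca
S100a9 held TTGCTTAA from 236 to 229 bases before the start, Slpi held TTGAGCAA from 241 to 234 bases before it, which is a match on the other strand, and S100a8 held none. Of the 5 genes in the promoter table, Lcn2 held one as well, TTGCTCAA from 216 to 209 bases before the start, and Camp held none. The motif is short, and 9.56% of 32851 promoters of this length held it, against 0.16% for TTGCGCAA, which none of the 5 held. None of the 5 held the AP-1 motif TGACTCA (4.46% of all promoters), the CRE TGACGTCA (1.55%), GGANNTTCC, which is part of an NF-kB site (3.59%), or the STAT motif TTCNNNGAA (7.02%), each searched on both strands. A match is a string of letters and not a bound site. S100a8 and S100a9 lie next to each other on chromosome 3 with 0 protein-coding genes between them, while Defb4 and Defb1 lie on chromosome 8 with 45 between them.

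The arrays were alike in their overall level, with a median probe set of 4.64 to 4.78 and a highest value of 13.7 to 14.6. A-C/EBP replicate 2 stood apart in its hybridization controls, which are added to every sample before hybridization and had a mean of 11.3 there against 9.03 to 10.6 in the others. The A-C/EBP values of the 7 genes are therefore given for each array and their differences without each, and counts of other genes without each array where these differ. All 11 measured keratinocyte markers lay above the median probe set in every array. In differentiation 10 of them were lower and 4 fell (Trp63 −1.42, Itga6 −1.61, Dsc3 −0.88 and Krt5 −0.75), which mark mostly the basal layer. The differentiation keratins Krt1 (9.18 and 10.98 to between 8.38 and 9.17) and Krt10 (8.33 and 9.96 to between 7.60 and 8.10) were also lower, without passing. None of the 11 passed with A-C/EBP or 5-AZA. Neutrophils also make S100a8, S100a9, Camp and Lcn2, and of their 11 other measured markers between 1 and 3 lay above the median, with a mean level of 4.27 to 4.40 in undifferentiated, 4.47 to 4.61 in differentiated, 4.49 to 4.58 in A-C/EBP and 4.55 in both 5-AZA arrays. None of these 11 passed the test in any of the 3 main comparisons. Ltf, the lactoferrin gene, was at 4.78 and 4.51 in the undifferentiated and at 7.45, 7.75, 5.20 and 6.63 in the differentiated arrays (2.11, adjusted p = 0.0561), while the A-C/EBP arrays had 6.98 and 5.74 and the 5-AZA arrays 7.38 and 6.09. Of 21 markers of other leukocytes 7 to 9 lay above the median, of 11 fibroblast markers 7 to 9 of 7 melanocyte markers 6 to 7 and of 7 endothelial markers 1 to 2. One gene of each of the first 3 of these lists passed in differentiation (Csf1r 0.82, Thy1 0.88 and Tyr −0.51), and none passed with A-C/EBP or 5-AZA. Of 10 markers of sebaceous gland and hair follicle 4 to 5 lay above the median, Krt79 (4.61) and Scd1 (2.70) rose in differentiation, and Krt15 rose with A-C/EBP (1.85), from 5.39 to 5.93 in the differentiated arrays to 8.02 and 7.10. Their part in the results below was not tested.

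**Figure D1:**
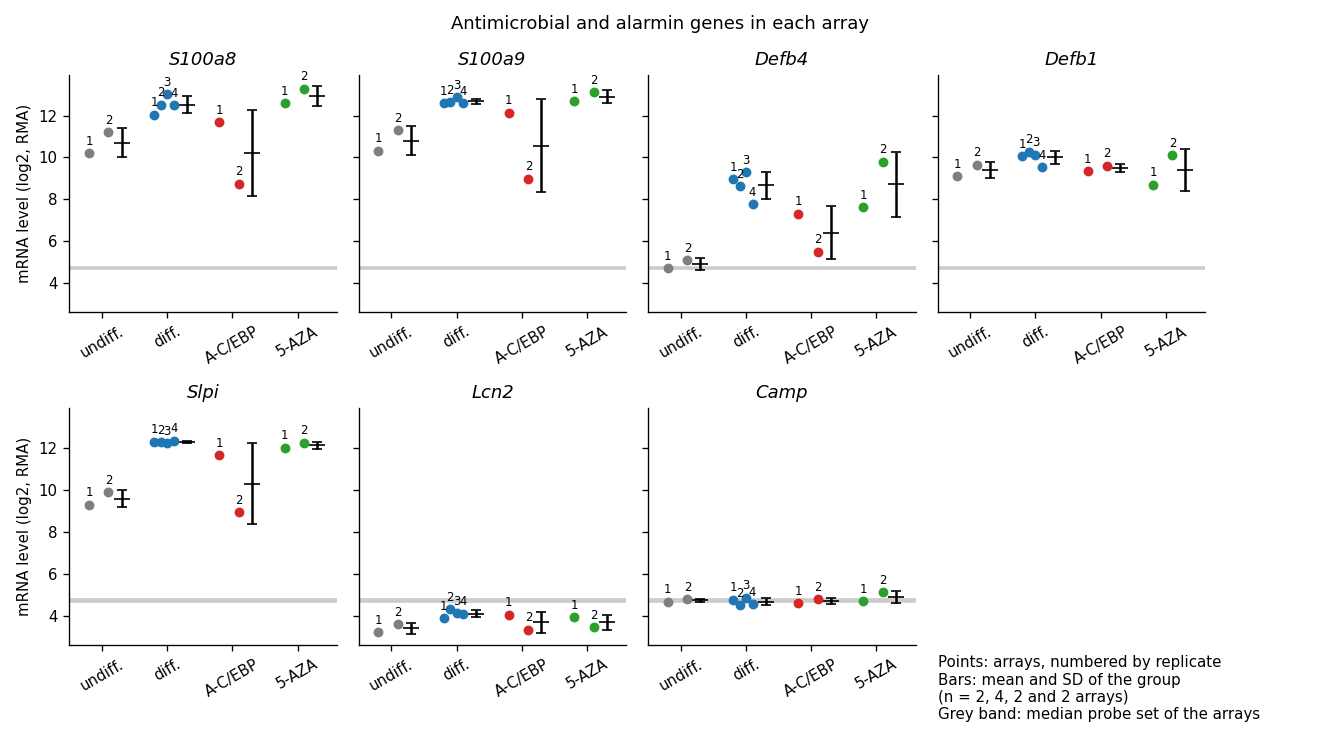
log2 mRNA level (vertical axis, RMA) of the 7 genes in each of 10 arrays, by group, with points numbered by replicate, bars for the mean and SD, and a grey band for the median probe set of the arrays (4.64 to 4.78). S100a8, S100a9, Slpi and Defb4 lie higher in all 4 differentiated than in both undifferentiated arrays and spread widely between the 2 A-C/EBP arrays. Defb1 overlaps between undifferentiated and differentiated arrays and spreads most between the 5-AZA arrays (8.70 and 10.10), and Lcn2 and Camp lie below or near the grey band.

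The first question was how these genes respond to calcium-induced differentiation. Defb4 and Slpi rose, and S100a8, S100a9 and Lcn2 lay higher in every differentiated array than in either undifferentiated array without passing the test over all genes, while Defb1 and Camp overlapped. So 2 of the 7 rose and 0 fell (limma, adjusted p under 0.05), against 6.64% of all genes that rose. For 5 of the 7 the arrays did not overlap and were higher, against 15.1% of all genes. An unadjusted limma p under 0.05 was found for 5 of the 7, beside 4691 of all 18194 genes. The median difference of the 7 was 1.82 on the log2 scale, beside −0.01 over all genes.

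Defb4 was at 4.69 and 5.09 in the undifferentiated arrays, which is about the median probe set, and at 8.97, 8.62, 9.29 and 7.76 in the differentiated ones. The groups lay far apart, although differentiated replicate 4 was the lowest of its group. The rise was 3.77 (SE 0.65, n = 4 and 2, limma adjusted p = 0.00296), 13.7-fold. The undifferentiated level is not shown to be above background, so this fold, like the others against undifferentiated cells for Defb4, may be too small. The adjusted p lay between 0.000505 and 0.0454 over the alternatives.

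Slpi was at 9.30 and 9.90 in the undifferentiated arrays and at 12.32, 12.31, 12.24 and 12.37 in the differentiated ones, where the 4 values were almost the same (SD 0.06). It rose by 2.71 (SE 0.56, limma adjusted p = 0.00783), 6.53-fold. It did not pass with differentiated arrays 1 and 2 only (2.71, limma adjusted p = 0.0538) or 3 and 4 only (2.70, adjusted p = 0.0533). Without undifferentiated replicate 1 the rise was 2.41, in a fit that leaves 1 undifferentiated array.

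S100a8 was at 10.20 and 11.20 in the undifferentiated arrays and at 12.04, 12.52, 13.03 and 12.49 in the differentiated ones. The undifferentiated arrays were 0.99 apart, the 106th widest distance of 18194 genes. The difference was 1.82 (SE 0.65, 3.53-fold, limma adjusted p = 0.0978).

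S100a9, the partner of S100a8, was at 10.32 and 11.29 in the undifferentiated arrays and at 12.59, 12.65, 12.88 and 12.60 in the differentiated ones. The lower undifferentiated array was the same as for S100a8, and the differentiated arrays were closer together (SD 0.14 against 0.41 for S100a8). The difference was 1.87 (SE 0.66, 3.67-fold, adjusted p = 0.0911).

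These tests use a spread shared over all groups, to which the distance between the A-C/EBP arrays adds. With only the undifferentiated and differentiated arrays in the fit, 5 of the 7 rose with the same differences. The limma adjusted p was then 0.0058 for S100a8, 0.00144 for S100a9 and 0.0161 for Lcn2. Over the alternatives, this fit among them, 864 to 3384 of all 18194 genes passed in this comparison, in either direction.

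Defb1 is made by epithelia without stimulation and was at 9.11 and 9.66 in the undifferentiated arrays and at 9.52 to 10.27 in the differentiated ones, so that the groups overlapped. The difference of 0.61 was not past the test (confidence interval −0.16 to 1.39, adjusted p = 0.33). Both of its probe sets had their lowest value in 5-AZA replicate 1 (8.38 and 9.01) and their highest in differentiated replicate 2 (10.54 for the second), and they moved alike.

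Lcn2 was at 3.20 and 3.58 in the undifferentiated arrays and at 3.86, 4.29, 4.13 and 4.09 in the differentiated ones, below the median probe set of every array, where signal and background are not separable from these files. Its difference was 0.70 (SE 0.22, adjusted p = 0.0563). Camp was at 4.66 and 4.79 in the undifferentiated and at 4.48 to 4.86 in the differentiated arrays, around the median probe set, and its difference was −0.06 (confidence interval −0.39 to 0.27, adjusted p = 0.89). The values of these genes stayed within a range of 1.10 for Lcn2 and 0.62 for Camp over all 10 arrays. In bulk samples like these, more cells making a transcript and more transcript per cell cannot be told apart.

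**Figure D2:**
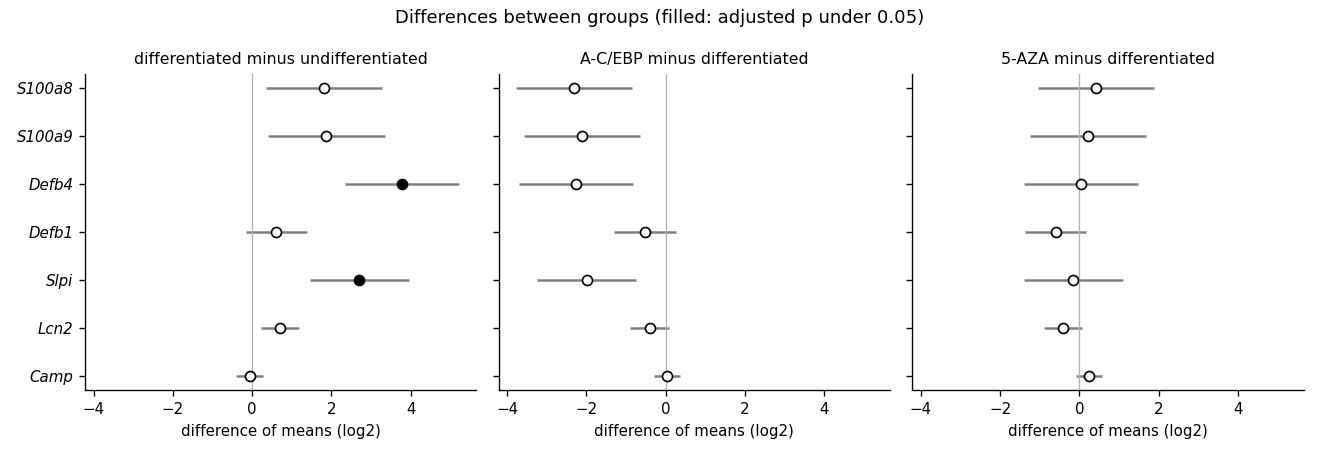
Differences of group means (horizontal axis, log2) of the 7 genes in the 3 main comparisons, with lines for the 95% confidence interval of the limma fit and filled points for an adjusted p under 0.05. Defb4 (3.77) and Slpi (2.71) are filled in differentiation, and S100a8, S100a9, Defb4 and Slpi lie between −2.31 and −1.99 with A-C/EBP, with wide intervals and open points.

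The second question was which of these genes depend on C/EBP factors in differentiated cells. S100a8, S100a9, Slpi and Defb4 were lower in both A-C/EBP arrays than in every differentiated array, and none of them passed the test over all genes, with the 2 A-C/EBP arrays far apart. Of the 7 genes 0 fell and 0 rose, against 0.583% of all genes that fell (106 genes, and 271 rose). For 4 of the 7 the arrays did not overlap and were lower, against 8.81% of all genes. An unadjusted limma p under 0.05 was found for 4 of the 7, beside 2469 of all 18194 genes. The median difference of the 7 was −1.99, beside 0.01 over all genes.

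S100a8 was at 11.67 in A-C/EBP replicate 1 and at 8.74 in replicate 2, against 12.04 or more in the differentiated arrays. Replicate 1 lay just under the differentiated arrays, and replicate 2 lay under both undifferentiated arrays as well. The difference was −2.31 (SE 0.65, confidence interval −3.77 to −0.85, limma adjusted p = 0.123).

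S100a9 was at 12.14 and 8.99, with the same order of the arrays and the same place relative to the other groups. Its difference from differentiated cells was −2.12 (SE 0.66, confidence interval −3.59 to −0.65, adjusted p = 0.16).

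Slpi was at 11.69 and 8.94, and again replicate 2 was under both undifferentiated arrays. Its difference was −1.99 (SE 0.56, confidence interval −3.24 to −0.75, adjusted p = 0.118). Defb4 was at 7.30 and 5.49, and here both arrays lay between the undifferentiated and the differentiated ones. Its difference was −2.27 (SE 0.65, confidence interval −3.71 to −0.83, adjusted p = 0.126).

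The result therefore depended on the array. Without A-C/EBP replicate 1 the differences were −3.77 for S100a8, −3.70 for S100a9, −3.37 for Slpi and −3.17 for Defb4. Without replicate 2 they were −0.85 for S100a8, −0.54 for S100a9, −0.62 for Slpi and −1.36 for Defb4. Each of these fits leaves 1 A-C/EBP array, so only the differences are given. Both A-C/EBP arrays lay under every differentiated array for these genes, so either array alone had to give a lower value.

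The distance between the A-C/EBP arrays was among the widest of any gene. It was 3.16 for S100a9, the third widest of 18194, 2.93 for S100a8 (the sixth), 2.75 for Slpi (the seventh) and 1.81 for Defb4 (rank 27), with replicate 2 the lower in each. Defb1 and Camp did not share it, with replicate 1 minus replicate 2 at −0.26 and −0.18. The part of the hybridization controls in this distance was not tested.

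**Figure D3:**
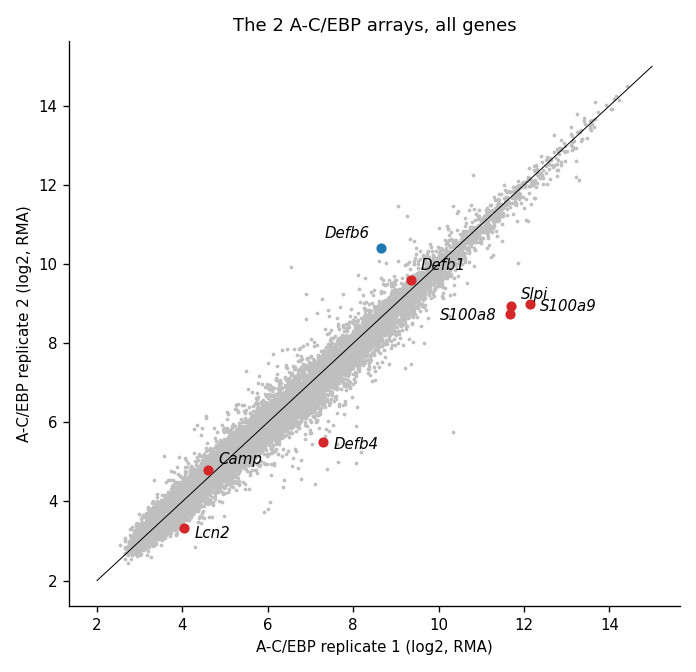
log2 level of each of 18194 genes (grey points) in A-C/EBP replicate 1 (horizontal axis) and replicate 2 (vertical axis), with the 7 genes in red, Defb6 in blue and a line of equal level. S100a9 (12.14 and 8.99), S100a8 (11.67 and 8.74), Slpi (11.69 and 8.94) and Defb4 (7.30 and 5.49) lie far under the line, and Defb6 (8.65 and 10.42) lies above it.

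The remaining genes moved little. Defb1 was at 9.35 and 9.61 in the A-C/EBP arrays, a difference of −0.52 (confidence interval −1.30 to 0.25, adjusted p = 0.608). Lcn2 was at 4.04 and 3.33, both still below the median probe set, a difference of −0.41 (adjusted p = 0.487). Camp was at 4.61 and 4.79, a difference of 0.04 (confidence interval −0.29 to 0.37, adjusted p = 0.961).

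Set against undifferentiated cells, none of the 7 passed in A-C/EBP cells (0 against 15.6% of all genes in either direction), and 1 of them did not overlap (52.1% of all genes), which was Defb4, higher by 1.51 (adjusted p = 0.249). S100a8 differed by −0.49 and S100a9 by −0.24, and these signs were set by replicate 2. Without it S100a9 was 1.34 higher than in undifferentiated cells and Slpi 2.09 higher. Without replicate 1 the difference was −1.96 for S100a8 and −1.82 for S100a9.

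The third comparison asked whether 5-azacytidine changes these genes in differentiated cells. None of the 7 rose or fell (0, against 0.286% of all genes in either direction), and none had arrays apart from the differentiated ones (0, against 16.4% of all genes). None had an unadjusted limma p under 0.05 either, beside 1655 of all 18194 genes. The median difference of the 7 was 0.04, as it was over all genes.

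S100a8 was at 12.58 and 13.29 with 5-AZA, and the second was the highest value of this gene in any array. Its difference from differentiated cells was 0.42 (confidence interval −1.04 to 1.87, limma adjusted p = 0.912). S100a9 was at 12.68 and 13.11, a difference of 0.22 (−1.25 to 1.69). Slpi was at 12.04 and 12.28, a difference of −0.15 (−1.39 to 1.09). Each of the 3 intervals reaches beyond 1, a doubling, in both directions.

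The 5-AZA arrays were far apart for the defensins. Defb4 was at 7.61 in replicate 1 and 9.79 in replicate 2, a distance of 2.18 that was the sixth widest of 18194 genes in this group. Replicate 1 lay under and replicate 2 over all 4 differentiated arrays, and the difference of the means was 0.04 (confidence interval −1.40 to 1.48). Defb1 was at 8.70 and 10.10, the 32nd widest, with replicate 1 the lowest value of Defb1 in any array, and its difference was −0.60 (−1.37 to 0.17, adjusted p = 0.669). Lcn2 was at 3.94 and 3.43 and Camp at 4.69 and 5.11.

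Against undifferentiated cells, Defb4 rose by 3.82 (SE 0.74, limma adjusted p = 0.00626) and Slpi by 2.55 (SE 0.64, adjusted p = 0.0222) with 5-AZA, 2 of the 7 beside 7.42% of all genes. S100a8 differed by 2.24 (adjusted p = 0.0761) and S100a9 by 2.09 (0.0988), and 4 of the 7 did not overlap and were higher, against 30% of all genes. The call of Slpi ended without any 1 of the undifferentiated or 5-AZA arrays (adjusted p = 0.0565 to 0.138). Between A-C/EBP and 5-AZA cells, 0 of the 7 fell in A-C/EBP (1.13% of all genes did), and 4 of the 7 were lower in both A-C/EBP arrays than in both 5-AZA arrays, against 25.2% of all genes. These differences were −2.73 for S100a8, −2.33 for S100a9, −2.31 for Defb4 and −1.84 for Slpi. The comparisons share arrays, so that they are not independent of each other.

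By their means, S100a8 and S100a9 were highest with 5-AZA, then in differentiated, undifferentiated and A-C/EBP cells, and no neighbours in this order differed past the test with all arrays. Slpi was highest in differentiated and Defb4 in 5-AZA cells, with 5-AZA second for Slpi, differentiated second for Defb4, and A-C/EBP and then undifferentiated below them for both, and neighbours in these orders did not pass either.

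Over the 10 arrays S100a8 and S100a9 moved together (Pearson r = 0.99), as did S100a9 and Slpi (0.96), S100a8 and Slpi (0.92) and Defb4 and Slpi (0.91). With each group's mean taken off, r was 0.97, 0.98, 0.93 and 0.60. The 2 A-C/EBP arrays, far apart for S100a8, S100a9 and Slpi, weigh most in the values for pairs of these genes. Among the differentiated arrays, S100a8 and S100a9 were both highest in replicate 3 (13.03 and 12.88), where Slpi was lowest (12.24). Without A-C/EBP replicate 2, r over the other 9 arrays was 0.97, 0.96, 0.89 and 0.92, with the group means left in. Defb1 followed Defb4 (0.57, and 0.68 with the group means taken off) more than it followed S100a9 (0.30 and 0.07). The points share arrays and normalization, and r is given as a description.

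The genes whose profiles were most like the mean of S100a8 and S100a9, among 1412 genes with an SD over the arrays of at least 0.5, were Gm94 (r = 0.98), Fads2b, a fatty acid desaturase (0.98), Orm1, an acute phase protein (0.97), 2610528A11Rik, which RefSeq also names Gpr15l (0.95), Elovl4, which makes the very long fatty acids of the barrier (0.94), Bpifc, of the family of bactericidal/permeability-increasing protein (0.92), Acot1, an acyl-CoA thioesterase (0.92), and Akr1c18, a steroid dehydrogenase (0.91). Without A-C/EBP replicate 2 their r lay between 0.82 and 0.97. The same array was low in these genes. Orm1 was at 6.68 and 6.95 in undifferentiated, 8.14 to 8.55 in differentiated, 7.10 and 4.44 in A-C/EBP and 8.49 and 8.71 in 5-AZA arrays. 2610528A11Rik, whose human counterpart is a secreted antimicrobial peptide and ligand of the homing receptor GPR15 of T cells, was at 8.06 and 4.97 in the A-C/EBP arrays and at 8.40 or more in the differentiated ones. Bpifc had closer A-C/EBP arrays, 9.30 and 8.65, beside 8.57 and 9.11 in undifferentiated, 9.93 to 10.28 in differentiated and 10.19 and 10.28 in 5-AZA arrays. These genes were chosen for their profile over the same arrays, so their differences between groups are descriptions and are given without a test. The 8 genes most like the mean of all 7 were Gm94 (0.96), Sdr16c6, Mfap3l, Snhg18, Bpifc, Lce1f, Ganc and Idi2 (0.94).

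**Figure D4:**
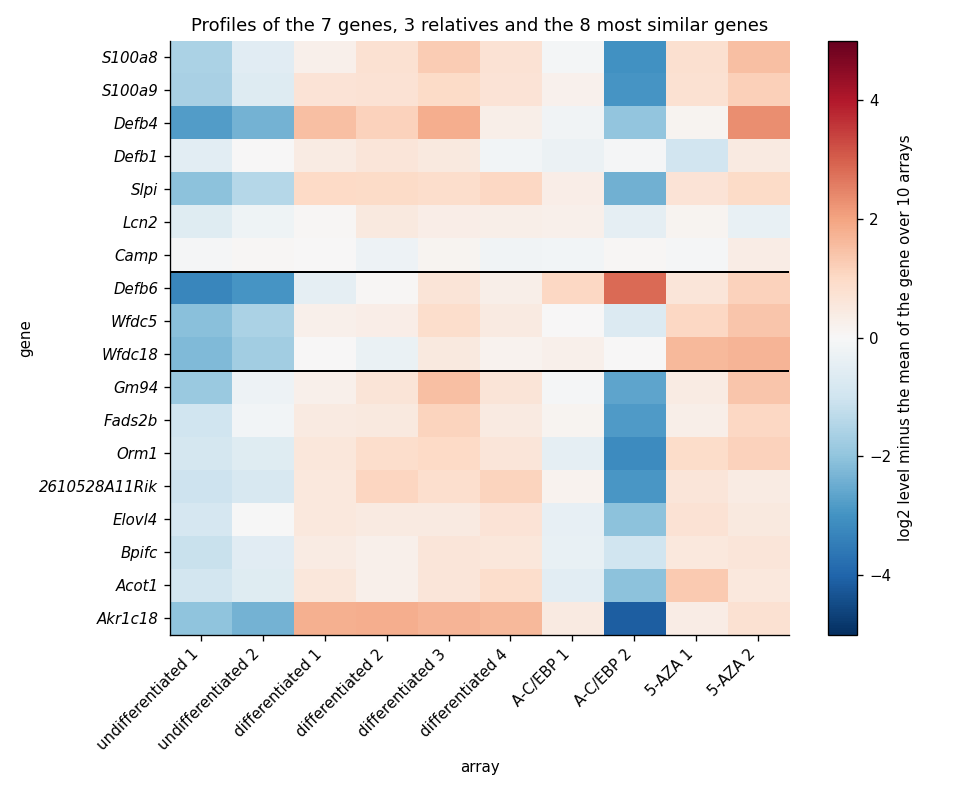
log2 level minus the gene's mean over the arrays (colour, red higher and blue lower) of the 7 genes (top), 3 related antimicrobial genes (middle) and the 8 genes most like S100a8 and S100a9 (bottom) in 10 arrays. S100a8, S100a9, Slpi and all 8 similar genes are blue in undifferentiated replicate 1 and in A-C/EBP replicate 2, where Defb6 is at its reddest.

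Related antimicrobial genes did not all follow. Of 26 other antimicrobial genes measured, 4 rose in differentiation (Wfdc18, Wfdc5, Defb6 and Pglyrp2), and 1 fell, Adm, whose peptide also dilates vessels. Over all genes 6.64% rose and 9.13% fell in this comparison. With A-C/EBP 1 rose, Pglyrp2, where 1.49% of all genes rose, and with 5-AZA 1 rose, Wfdc18, where 0.17% of all genes rose. The median difference of the 26 was 0.06, −0.03 and −0.01 in these comparisons. With A-C/EBP 2 of the 26 rose without A-C/EBP replicate 1 and 1 fell without differentiated replicate 3. The call of Pglyrp2 with A-C/EBP ended without A-C/EBP replicate 2, and that of Adm without undifferentiated replicate 2.

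Defb6, a β-defensin like Defb4, was at 4.33 and 4.66 in the undifferentiated, 7.17, 7.66, 8.23 and 7.88 in the differentiated, 8.65 and 10.42 in the A-C/EBP and 8.20 and 8.76 in the 5-AZA arrays. It rose in differentiation as Defb4 did (3.24, SE 0.43, limma adjusted p = 0.000737), again from a level not shown to be above background. With A-C/EBP its arrays were both above all differentiated ones, where those of Defb4 were below (1.80, SE 0.43, adjusted p = 0.0695, not past the test), and it was highest in the array in which S100a8, S100a9 and Slpi were lowest. Defb2, Defb3, Defb5, Defb7 and Defb8 lay below the median probe set in all 10 arrays.

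Of the genes with a WAP domain, which Slpi also carries, Wfdc5 was at 5.64 and 6.12 in the undifferentiated, 7.99 to 8.61 in the differentiated, 7.73 and 7.05 in the A-C/EBP and 8.77 and 9.09 in the 5-AZA arrays. It rose in differentiation (2.32, SE 0.23, adjusted p = 0.000172) and was lower in both A-C/EBP arrays (−0.81, SE 0.23, adjusted p = 0.128). Wfdc18 was at 5.73 and 6.18, 7.60 to 8.41, 8.20 and 7.97, and 9.56 and 9.62 in the same order of groups. It rose in differentiation (2.06, SE 0.21, adjusted p = 0.000165) and again with 5-AZA (1.58, SE 0.21, adjusted p = 0.0272), where its arrays were closest together, and the second call ended without differentiated replicate 1 or 4 or either 5-AZA array. Wfdc2 differed by 0.64 in differentiation (adjusted p = 0.366).

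Antimicrobial peptides are cut from their precursors by proteases of the skin surface, which have inhibitors of their own. Of 19 such genes measured, 10 rose in differentiation and 1 fell, with a median difference of 0.74, where 6.64% of all genes rose and 9.13% fell. The kallikreins Klk6 (4.04, SE 0.30, adjusted p = 4.13e-05) and Klk8 (1.73, SE 0.16, adjusted p = 0.00011) and the inhibitor Cst6 (4.20, SE 0.32, adjusted p = 4.13e-05) rose, and the stefin Stfa3 fell (−4.39, SE 0.45, adjusted p = 0.00018). Between 9 and 10 rose without any 1 array, and 2 fell without differentiated replicate 3. With A-C/EBP 1 of the 19 fell, the protease inhibitor Spink12 (−3.38, SE 0.62, limma adjusted p = 0.0259), and 0 rose, where 0.583% of all genes fell and 1.49% rose. With 5-AZA none of the 19 passed, where 0.286% of all genes did. Spink12 shared the split of the A-C/EBP arrays, with 7.64 in replicate 1 and 5.00 in replicate 2 against 9.46 to 10.19 in the differentiated arrays, and its call ended without any 1 of the differentiated arrays or A-C/EBP replicate 2.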

How the data were processed

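Total RNA was hybridised to Affymetrix mouse genome arrays. The deposited values are log2 signals per probe set, which the authors made with RMA in Affymetrix Expression Console per the submitters' processing notes (versions and background settings not given in the sources used here), and they were analysed without further normalization. RMA equalises the probe intensities of the arrays before it summarises them per probe set, so a change shared by most transcripts can be hidden. Chromatin and methylation data of the study were not analysed here.

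Of 45101 probe sets, 34958 had a single gene symbol in the platform annotation, 932 several and 9211 none. Probe sets of one symbol were averaged, giving 18194 genes, 9012 from more than 1 probe set. The probe set of S100a8 ends in _s_at, so it can match several transcripts. A single limma 3.58.1 model (R 4.3.3) with the mean of each group was fitted to the 10 arrays (6 residual degrees of freedom), with eBayes, two-sided tests and Benjamini-Hochberg adjustment over all genes. A gene rose or fell where the adjusted p was under 0.05. Intervals are 95% and unadjusted. The script was tested on simulated data.

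Arrays were grouped and numbered by their titles. Both A-C/EBP descriptions carry the number 2, so the titles were used. Genes named are the 7, those passing in the wider lists (up to 4 per list and comparison, smallest adjusted p first) and the 8 most similar profiles. Wfdc2, Adm, Ltf, Krt1, Krt10, Tlr4, Ager and the defensins below the median were named after their values were seen. The genes and lists were chosen with earlier results of these data known. Lists are described by counts, with no test. Promoter sequences are from RefSeq (GRCm38.p6). The alternatives were median centring, a second quantile normalization, the brightest probe set, omission of probe sets ending in _x_at or _s_at, an intensity trend in eBayes, a fit without the 40% of genes that were dimmest, a replicate block, part of the differentiated arrays, only the 2 compared groups, the hybridization controls as a covariate, the methods' t-test, a difference over 0.5 in place of a test, and omission of each array. Counts of the lists without each array were added after the data were seen.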

Additional observations from a re-analysis of the deposited data

How the results depend on the processing

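With 2 arrays in 3 of the 4 groups, the number of arrays limits every test here. In differentiation 16.1% of all genes differed by over 0.5 without a test, and 2 of the 7 genes passed. This became 5 with only the 2 compared groups in the fit, 1 with differentiated arrays 1 and 2 or 3 and 4 only, 4 with the hybridization controls as a covariate, 6 when counting differences over 0.5 without a test, and 1 to 5 without 1 array (1 without undifferentiated replicate 1, 5 without either A-C/EBP array, since the distance between those arrays then leaves the shared spread). With A-C/EBP 0 passed, against 5 over 0.5, a size reached by 6.74% of all genes. With 5-AZA 0 passed, against 1 over 0.5 (Defb1), beside 3.98% of all genes over 0.5. For A-C/EBP against undifferentiated cells 0 passed, against 2 over 0.5, where 18.9% of all genes were over 0.5. S100a9 went from −0.24 to 1.34 without A-C/EBP replicate 2 and was at −1.82 without replicate 1. Each of these fits leaves 1 A-C/EBP array, so only the differences are given. For 5-AZA against undifferentiated cells 2 passed, against 4 with only the 2 compared groups in the fit. The count was 1 with differentiated arrays 1 and 2 or 3 and 4 only, and 0 by the methods' t-test after adjustment. It was 4 over 0.5, beside 19.8% of all genes. Between A-C/EBP and 5-AZA 0 passed, against 4 over 0.5, beside 10% of all genes over 0.5.

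The median of the 7 without probe sets ending in _x_at or _s_at, which drops S100a8, was 1.29 in differentiation, −1.26 with A-C/EBP, 1.19 for 5-AZA against undifferentiated and −1.02 for A-C/EBP against 5-AZA cells. Without 1 array it ran from −3.17 to −0.62 with A-C/EBP, from −0.090 to 0.97 for A-C/EBP against undifferentiated, and from −3.21 to −0.47 for A-C/EBP against 5-AZA cells. Where not stated, the cause of a change was not tested.

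Over all genes 1208 rose and 1662 fell in differentiation, and 864 passed by the methods' t-test. With A-C/EBP 271 rose and 106 fell, and 0 passed by that test, and with 5-AZA 31 rose and 21 fell, and 0 passed. By the same test without adjustment 5, 1 and 0 of the 7 had a p under 0.05 in these comparisons, beside 4025, 1868 and 1206 of all 18194 genes. Arrays of the same number in different groups deviated together (r = 0.23 to 0.47), but groups share only 2 numbers and no label ties a number to a batch. With the replicate block the counts of the 7 were the same in all 6 comparisons (2, 0, 0, 0, 2 and 0), while 773 genes passed with A-C/EBP, 398 with 5-AZA and 1384 between A-C/EBP and 5-AZA, against 374 that rose and 206 that fell without the block in the last.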

Other observations

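Of 13 other alarmins measured, 2 rose and 4 fell in differentiation. Tslp, a cytokine that keratinocytes release to dendritic cells, fell from 11.48 and 11.53 to between 6.86 and 7.79 (−4.21, SE 0.54, limma adjusted p = 0.000575), and the chromatin protein Hmgb2 fell (−1.65, SE 0.15, adjusted p = 9.88e-05), as did the chaperone Hspd1 (−1.02, SE 0.20, adjusted p = 0.0059), while the galectin Lgals3 rose (0.90, adjusted p = 0.00778). Over all genes 6.64% rose and 9.13% fell in differentiation and 1.49% rose and 0.583% fell with A-C/EBP, against which the counts of these lists are read. With A-C/EBP 2 of the 13 rose, Il33 (2.08, SE 0.29, adjusted p = 0.00886) and Tslp (2.96, SE 0.54, adjusted p = 0.0238). Tslp was at 9.04 in A-C/EBP replicate 1 and at 11.48 in replicate 2, the array in which S100a8, S100a9 and Slpi were lowest, and Il33 was at 11.38 and 11.65. Without A-C/EBP replicate 2 none of the 13 rose, and 1 did without differentiated replicate 1 or 4. In differentiation 0 rose without either undifferentiated array, 1 rose without differentiated replicate 1, 2 or 4 or either 5-AZA array, and 2 fell without undifferentiated replicate 1.

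Of 21 receptors measured, 3 rose in differentiation, Alcam (2.15, SE 0.24, limma adjusted p = 0.000302), Tlr5 (0.47, adjusted p = 0.00767) and Cd14 (0.70, adjusted p = 0.0292). Fewer of the 21 rose without undifferentiated replicate 1, which leaves 1 undifferentiated array. With A-C/EBP or 5-AZA 0 of the 21 passed. The receptors of S100a8 and S100a9 named above did not pass in differentiation (Tlr4 0.15, adjusted p = 0.401, and Ager −0.01, adjusted p = 0.982). Of 30 signal transducers and transcription factors, 2 rose (Elf3, 1.67, and Vdr, 1.01) and 1 fell (Fosl1, −1.03) in differentiation, and each count was 0 without either undifferentiated array, with 0 to 3 falling over all omissions of 1 array. With A-C/EBP 3 of the 30 rose, Nfkbia (1.25, adjusted p = 0.0226), Relb (1.46, adjusted p = 0.0322) and Nfkb2 (0.57, adjusted p = 0.0322), all genes of the NF-kB pathway, and 0 fell. This count was 0 without A-C/EBP replicate 2 and 1 without A-C/EBP replicate 1 or differentiated replicate 1, 2 or 3.

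Of 28 inflammatory genes often induced with the alarmins, 5 rose and 4 fell in differentiation, and 6 rose and 1 fell with A-C/EBP, among them Ccl20 (2.95, SE 0.28, adjusted p = 0.00122), a chemokine, Il1rn (1.47, SE 0.17, adjusted p = 0.00369), which blocks the interleukin-1 receptor, and Tnip1 (0.93, SE 0.13, adjusted p = 0.00734), which restrains NF-kB. Ptgs2 fell (−1.25, SE 0.24, adjusted p = 0.0284). Without A-C/EBP replicate 2, 1 rose and 0 fell, 3 rose without differentiated replicate 2 or 3, and 0 fell without differentiated replicate 1, 2 or 4. In differentiation 3 rose without either undifferentiated array and 2 fell without undifferentiated replicate 2. Of 17 cytokine receptors 2 rose and 2 fell in differentiation, and 2 rose with A-C/EBP (Il6st, 0.63, and Il17re, 0.48), a count of 0 or 1 without any 1 array. In differentiation 1 rose without undifferentiated replicate 1 and 1 fell without undifferentiated replicate 2. With A-C/EBP 1 fell without A-C/EBP replicate 1. None of these lists had a call with 5-AZA, apart from 1 inflammatory gene that fell without either A-C/EBP array.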
